A study of Sus scrofa with 9 samples.

Results

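Round spermatids of the pig testis were compared with spermatogonia over all measured genes. The comparison takes the 3 libraries labelled round spermatids and the 3 labelled spermatogonia, 6 of the 9 libraries of the series. The remaining 3, from spermatocytes, entered only the estimate of the spread between libraries. All are total RNA of testis cells sequenced in paired reads, from a series that asks how chromatin structure and gene expression change as sperm form. The labels name no treatment and no allele, and the sources used here do not give the breed, the age, the animals or the way the cells were separated. The spermatogonia columns carry the name of the KIT receptor as their heading. They were matched to the spermatogonia samples by the meaning of that name and by the shared numbers 1, 2 and 3, which no label states.

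Spermatogonia are the dividing cells on the basement membrane of the seminiferous tubule. They hold the stem cells of the male germ line and give rise to the spermatocytes that enter meiosis. Round spermatids, the haploid products of meiosis, transcribe the genes of the acrosome and the tail and make many messages, protamines among them, that are stored and translated later, when histones give way to transition proteins and then protamines. Sertoli cells surround these germ cells inside the tubule, peritubular myoid cells form its contractile wall, and Leydig cells between the tubules make testosterone.

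Library totals were 63528653 to 64639201 estimated counts for spermatogonia and 47963279 to 56184816 for round spermatids, with round spermatids 2 the shallowest. Levels are given as CPM, each count over the TMM-scaled size of its library, and n = 3 libraries in each stage wherever a mean ± SD is printed. A gene is called when its Benjamini-Hochberg adjusted p in edgeR's quasi-likelihood test lies below 0.05, and log2 fold changes are round spermatids over spermatogonia. The spermatogonia libraries were closer to each other than the round spermatid libraries were, with Pearson correlations of log2 CPM across genes, which are not independent replicates, of 0.997. Round spermatids 1 and 3 correlated at 0.993 and round spermatids 2 with either at 0.979 to 0.980, while correlations between the stages were 0.768 to 0.796. A chi-square test of the counts, gene by gene, gave medians of 0.797 to 0.849 for any 2 spermatogonia libraries and of 2.26 to 21.3 for any 2 round spermatid libraries, with 0.455 the value for counting error alone. The spermatogonia libraries thus differed by little more than counting error, and how far they are separate biological samples was not tested. They were kept as 3 libraries, and counted as 1 sample in an alternative. Transcripts of the mitochondrial genome took 0.690 to 0.706% of counts in spermatogonia and 9.09, 3.14 and 10.2% in round spermatids 1, 2 and 3, so round spermatids 2 stood apart in this too. No label says that the libraries come from separate animals, so the p-values rest on library-to-library spread, part of which may be technical. In bulk libraries like these, fewer cells of a type and less RNA per cell cannot be told apart.

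The markers went partly with the labels and partly against them. PRM2, a protamine of the sperm nucleus and the marker of round spermatids, stood at 181, 188 and 184 CPM in spermatogonia and 993, 732 and 982 CPM in round spermatids. All 3 round spermatid libraries were above all 3 spermatogonia libraries, and the log2 fold change was 2.29 ± 0.34 SE (edgeR, adjusted p = 0.000107). UCHL1, a deubiquitinating enzyme that marks spermatogonia, stood at 27.6, 24.9 and 25.7 CPM in spermatogonia and 1.64, 2.68 and 1.39 CPM in round spermatids, a log2 fold change of -3.77 ± 0.30 SE (adjusted p = 1.15e-06). PIWIL2, a PIWI protein of germ cells up to the round spermatid, stood at 41.7, 41.6 and 40.0 CPM in spermatogonia and 3.25, 6.04 and 3.9 CPM in round spermatids, a log2 fold change of -3.22 ± 0.25 SE (adjusted p = 8.25e-07). Neither gene's stages overlapped. Such a lack of overlap held for 85.2% of all 16802 genes tested, and 79.2% were called. By symbol on Sscrofa11.1, PRM2 (ENSSSCG00000024307) lies on chromosome 3 from 31864350 to 31864959, UCHL1 (ENSSSCG00000022945) on chromosome 8 from 32353766 to 32367288 and PIWIL2 (ENSSSCG00000030228) on chromosome 14 from 6560402 to 6632524.

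Other markers went against the labels on both sides. The spermatogonia libraries held late germ cell transcripts in quantity: 46 of the 51 acrosome and sperm-egg fusion genes tested and 93 of the 97 axoneme genes had a mean of at least 10 CPM there, against 48.1% of all genes. PRM1, the other protamine, stood at 757, 742 and 739 CPM in them. Genes of undifferentiated spermatogonia were mixed in the libraries labelled spermatogonia. Of 21 tested, 9 had a mean of at least 10 CPM there, UCHL1 and FGFR3 among them, against 48.1% of all genes. The stem cell markers ZBTB16 (3.74 ± 0.35 CPM) and GFRA1 (0.86 ± 0.0984 CPM) lay below that level. Some transcripts of Leydig cells were present there as well, with INSL3 at 179, 167 and 174 CPM. Their list was mixed: of 20 tested, 8 had a mean of at least 10 CPM there, against 48.1% of all genes. In round spermatids 11 of them were called lower and 7 higher. The round spermatid libraries held transcripts of smooth muscle and of connective tissue. ACTA2, the actin of smooth muscle and peritubular myoid cells, stood at 1004, 1301 and 963 CPM in them against 3.45, 3.04 and 3.22 in spermatogonia. Summed over the list, 36 smooth muscle genes came to 10112 to 12198 CPM in round spermatids against 231 to 234 in spermatogonia. In the same order, 67 matrix genes came to 27336 to 27916 against 545 to 557, and 32 Sertoli cell genes to 3539.7 to 3680.2 against 537 to 542. For 20 Leydig cell genes the order was the opposite, 164 to 175 CPM in round spermatids against 507 to 538 in spermatogonia. Below, a stage means the libraries that carry its label. How much these transcripts of other cells add to the fold change of any germ cell gene was not tested.

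**Figure D1:**
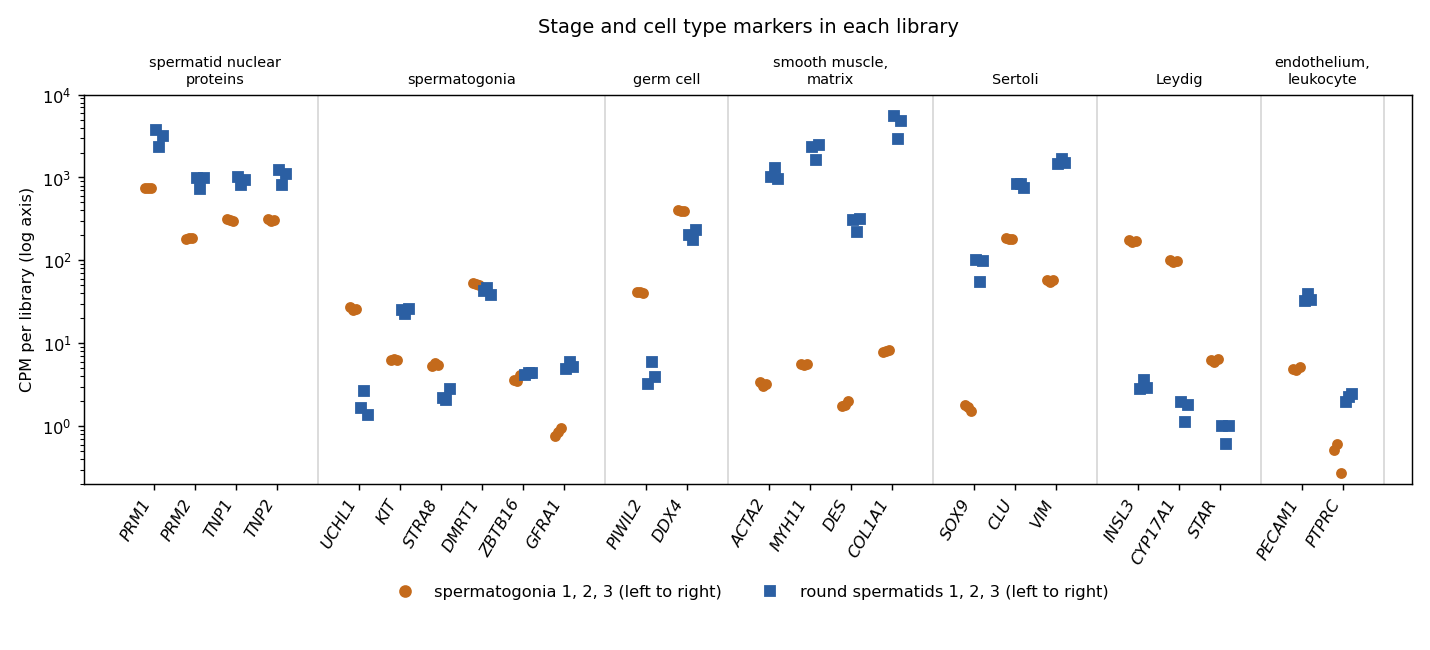
Levels in CPM (log axis) of stage and cell type markers in each of the 3 spermatogonia and 3 round spermatid libraries, one point a library. Protamines and transition proteins, smooth muscle, matrix and Sertoli cell markers are higher in round spermatids. UCHL1, PIWIL2 and the Leydig cell genes INSL3, CYP17A1 and STAR are higher in spermatogonia.

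Most genes differed between the stages. Of the 16802 genes, 6639 were called higher in round spermatids (39.5%) and 6673 lower (39.7%), so 79.2% were called in all. The 3 libraries of one stage lay wholly above or below those of the other for 14312 genes (85.2%). The median over all genes was 0.00, but the rises were larger than the falls: 1114 called genes were at least 16-fold higher and 104 at least 16-fold lower. At least 2-fold changes numbered 5192 and 4488, and the median log2 fold change was 1.90 for genes called higher and -1.31 for genes called lower. Without round spermatids 2 the counts were 6989 and 6778. Some of the genes named here lost their call with the spermatogonia libraries summed to 1 sample. They were ACRV1, CFAP97D1, COL12A1, DKKL1, FHL5, H1-7, INHA, LMNB1, OAZ3, PDHA1, RAD21, SMC1B, SMC6, SPATA3, SPO11, STAG1, TJP1, TSKS and YBX1. In a limma fit of log2(TPM + 1), 4499 genes were higher (26.8%) and 8409 lower (50%), so 34.85% of called genes were higher against 49.87% on counts. Within a gene the deposited TPM and counts differ only by a factor common to all genes of a library, and that fit has another test, a pseudocount and no TMM factors. It moved the median of all genes to -0.39, so values on TPM are read against that median, and a small rise on counts can lose its call or turn sign there with no change in its place among genes. The shift was not the same for every gene, since the pseudocount also shrinks changes of genes at low levels. The median of leukocyte genes was 2.56 on counts and 0.38 on TPM, and that of piRNA pathway genes -1.89 and -2.03. Because so many genes pass the test, the counts of each group of genes below are read against 39.5% higher and 39.7% lower.

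**Figure D2:**
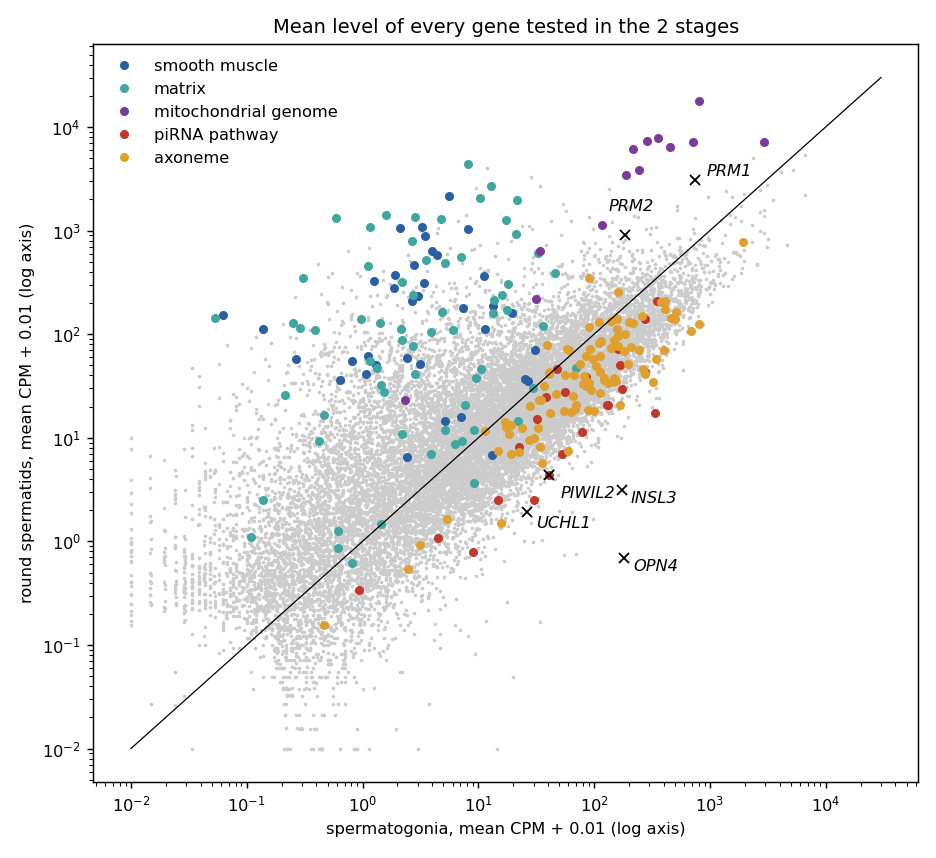
Mean CPM + 0.01 of the 16802 genes tested in spermatogonia (x axis) and round spermatids (y axis), both on log axes, with the line of equal levels. Most smooth muscle and matrix genes and all mitochondrial-genome genes lie above the line, most axoneme genes and nearly all piRNA pathway genes below it.

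The 10 largest rises among genes of at least 50 CPM in the higher stage held genes of the matrix, of smooth muscle and of stroma. OGN, a small leucine-rich proteoglycan of the matrix, stood at 0.0426, 0.0142 and 0.0719 CPM in spermatogonia and 166, 106 and 159 CPM in round spermatids. Its 3 spermatogonia libraries held 9 counts in all, so few reads set the size of its log2 fold change, 11.64 ± 0.63 SE. KCNMB1, the smooth muscle subunit of the BK potassium channel, came next (11.45 ± 0.44 SE, 11 counts over the spermatogonia libraries), then MFAP4, a microfibril protein (11.16 ± 0.48 SE). CD248 (10.39, or 11.34 without spermatogonia 3), a surface protein of stromal cells and pericytes, NEXN (10.19), an actin-binding muscle protein, and LUM (10.17), the collagen-binding lumican, followed. The matrix glycoprotein SPARCL1 (9.87), PTN (9.82), BGN (9.80) and APOD (9.75) completed the 10. Their adjusted p in edgeR ran from 1.89e-09 to 3.49e-06. Of the 10, LUM was the most even across round spermatids, at 343, 346 and 351 CPM, and APOD one of the least, at 895, 208 and 801 CPM.

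The largest falls mixed Leydig cell, germ cell and cell division genes. OPN4, the photopigment melanopsin, stood at 179.5, 179.5 and 182 CPM in spermatogonia and 0.965, 0.546 and 0.524 CPM in round spermatids, 266-fold lower (-8.05 ± 0.24 SE). CYP17A1, the enzyme that opens androgen synthesis in Leydig cells, stood at 100.4, 96.5 and 97.1 CPM in spermatogonia and 1.95, 1.13 and 1.79 CPM in round spermatids (-5.92 ± 0.27 SE). INSL3, a peptide hormone of Leydig cells, stood at 179, 167 and 174 CPM in spermatogonia and 2.84, 3.59 and 2.91 CPM in round spermatids (-5.79 ± 0.19 SE). In each of the 3 genes every round spermatid library was more than an order of magnitude below every spermatogonia library. TDRD6, a tudor protein of the chromatoid body, fell 19.4-fold and ESPL1, the separase that cuts cohesin, 14.2-fold. SLC2A8, a hexose transporter of the testis, fell 15.9-fold, and TEX101, a germ cell surface protein needed for sperm function, 13.8-fold. PTPN7 (a tyrosine phosphatase), GPC2 (a glypican) and TOMM34 (a cochaperone) fell 16.4-fold, 15.3-fold and 15.2-fold. For the 10 genes the adjusted p in edgeR ran from 3.84e-09 to 4.03e-07.

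**Figure D3:**
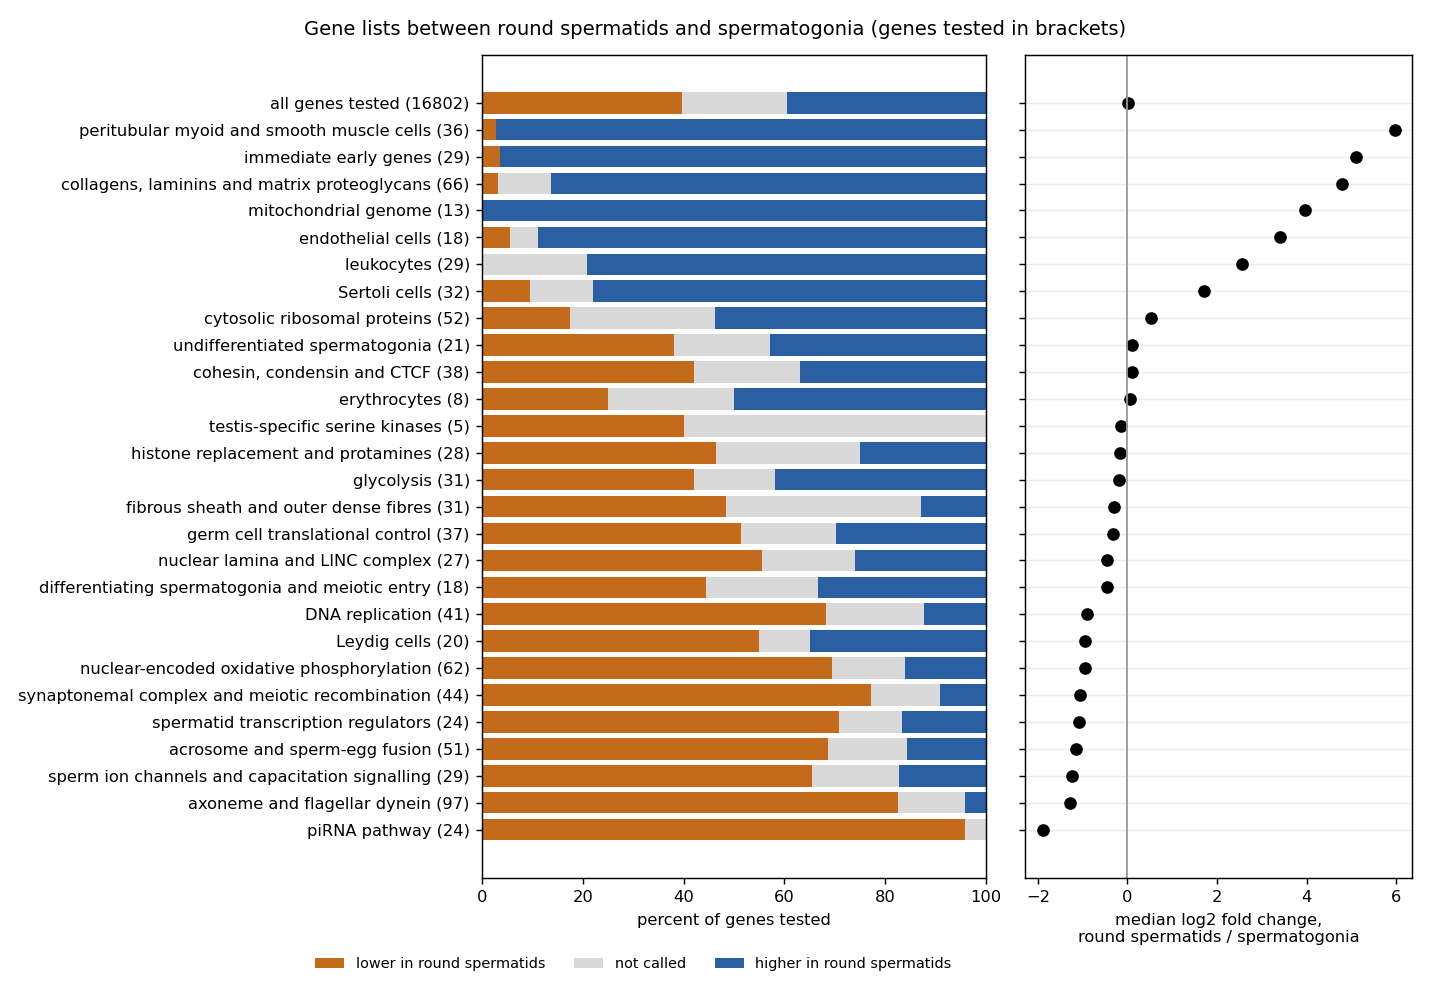
For each gene list, the percent of genes tested that were called lower, not called or called higher in round spermatids (left), and the median log2 fold change (right), with all 16802 genes at the top. Smooth muscle, immediate early, matrix and mitochondrial-genome lists lie at the high end and piRNA, axoneme and ion channel lists at the low end.

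Genes of undifferentiated spermatogonia did not move together. Among 21 tested, 9 were called higher and 8 lower, against 39.5 and 39.7% of all genes, with a median log2 fold change of 0.10, and of -0.38 on TPM, where all genes had -0.39. Besides UCHL1, FGFR3, a receptor of fibroblast growth factors, fell from 17 ± 0.447 to 2.22 ± 0.421 CPM. RET, the signalling receptor of the stem cell factor GDNF, stood at 12.2, 12.7 and 12.3 CPM in spermatogonia and 3.06, 3.69 and 2.47 CPM in round spermatids, a log2 fold change of -2.01 ± 0.17 SE. GFRA1, the partner that binds GDNF for RET, went the other way, at 0.767, 0.849 and 0.963 CPM in spermatogonia and 4.91, 5.99 and 5.15 CPM in round spermatids (2.64 ± 0.19 SE). The receptor pair was thus higher in opposite stages, without overlap of libraries in either gene. ID4, an inhibitor of helix-loop-helix factors that marks stem cells in mice, rose from 1.03 ± 0.0509 to 105 ± 36.3 CPM. The tetraspanin CD9 (4.04) and the forkhead factor FOXO1 (3.23) were also higher. ZBTB16, a repressor needed for self-renewal, stood at 3.74 ± 0.35 CPM in spermatogonia and 4.32 ± 0.143 in round spermatids and was not called (adjusted p = 0.212), and neither was the sex-determining factor DMRT1 at 52 ± 1.2 CPM in spermatogonia and 42.4 ± 3.63 in round spermatids (adjusted p = 0.0587, and 0.0315 without round spermatids 2). ID4, CD9 and FOXO1 are also expressed in somatic cells, whose summed markers are given above.

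Of 18 differentiation and meiotic entry genes tested, 6 were called higher (33.3%) and 8 lower (44.4%), shares near those of all genes, with a median of -0.47. The receptor KIT, which marks differentiating spermatogonia and also interstitial cells, stood at 6.22, 6.54 and 6.31 CPM in spermatogonia and 25.2, 22.8 and 25.7 CPM in round spermatids, 3.87-fold higher in round spermatids (1.95 ± 0.12 SE, adjusted p = 2.17e-07). That order is the reverse of the heading on the spermatogonia columns. Genes that start meiosis were lower: STRA8, the retinoic acid target, stood at 5.33, 5.75 and 5.45 CPM in spermatogonia and 2.22, 2.08 and 2.8 CPM in round spermatids (-1.22 ± 0.22 SE), and MEIOSIN, its partner, at 7.54, 7.67 and 7.27 CPM in spermatogonia and 2.93, 3.72 and 3.01 CPM in round spermatids (-1.22 ± 0.20 SE). SOHLH2, a helix-loop-helix factor of spermatogonia (-1.37), the DNA methyltransferase DNMT3B (-1.57) and the testis protease gene PRSS50 (-1.71) fell. RARA, a retinoic acid receptor (3.17), and CCND2, a cyclin of the G1 phase (4.42), rose.

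DNA replication genes were mostly lower in round spermatids. Of 41 tested, 28 were called lower and 5 higher, with a median of -0.91. POLE, the catalytic subunit of the leading-strand polymerase, stood at 24.2, 25.9 and 25.4 CPM in spermatogonia and 2.01, 4.27 and 2.7 CPM in round spermatids (-3.07 ± 0.24 SE). CDC45, which activates the replicative helicase, stood at 29.4, 29.8 and 29.8 CPM in spermatogonia and 3.99, 5.58 and 3.72 CPM in round spermatids (-2.74 ± 0.19 SE). MCM5, a subunit of that helicase, and RRM1, the large subunit of ribonucleotide reductase, fell 4.1-fold and 4.25-fold. In POLE, CDC45 and MCM5 round spermatids 2 was the highest of its stage, as it was on CPM for 27 of the 41 genes, against 43.6% of all genes, and on TPM for 38, against 85.5%. ORC4, of the origin recognition complex (1.52), and TIPIN, which stabilises forks (1.48), were higher. TOP2A, the topoisomerase of dividing cells, fell from 400.2 ± 10.5 to 197 ± 33.7 CPM.

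Genes of the synaptonemal complex and of meiotic recombination were lower in round spermatids in 34 of 44 cases and higher in 4, with a median of -1.06. Break formation was represented by MEI1, at 15.5, 14.9 and 15.5 CPM in spermatogonia and 1.05, 1.87 and 1.12 CPM in round spermatids (-3.51 ± 0.23 SE), and by IHO1, which fell 5.11-fold. SPO11, the enzyme that makes the breaks, fell less, from 6.97 ± 0.0903 to 4.32 ± 0.992 CPM (-0.69 ± 0.24 SE, adjusted p = 0.0234). Without round spermatids 2, spermatogonia 2 or spermatogonia 3 the adjusted p of SPO11 was 0.0672, 0.055 or 0.0533. The recombinase DMC1, which pairs broken ends with the homolog, stood at 39.9, 39.6 and 37.7 CPM in spermatogonia and 8.06, 9.13 and 10.2 CPM in round spermatids (-2.09 ± 0.24 SE). Among axis and synapsis proteins, HORMAD2 (-2.11), HORMAD1 (-1.18), SYCE1 (-1.32) and SYCP2 (-1.06) fell. SYCP3, the main lateral element protein, stood at 63.5 ± 2.28 CPM in spermatogonia and 58.8 ± 1.92 in round spermatids and SYCP1, the transverse filament, at 29.3 ± 0.59 CPM in spermatogonia and 47.5 ± 19.8 in round spermatids, and neither was called (adjusted p = 0.311 and 0.0675). SYCP1 was uneven in round spermatids, at 59.2, 24.6 and 58.7 CPM, with round spermatids 2 below all 3 spermatogonia, and without that library it was called higher (1.01, adjusted p = 0.00267). It was also called higher under 6 other alternatives, such as DESeq2 and RLE factors. The crossover pair MSH4 and MSH5 split: MSH4 stood at 5.07, 4.6 and 5.26 CPM in spermatogonia and 34.3, 20.6 and 35 CPM in round spermatids (2.59 ± 0.20 SE) and MSH5 at 10.1, 10.5 and 10.5 CPM in spermatogonia and 2.1, 2.32 and 2.53 CPM in round spermatids (-2.16 ± 0.15 SE). The 2 proteins act as a dimer on recombination intermediates. CCNB1IP1, a crossover regulator, was also higher (2.86).

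The piRNA pathway, which makes small RNAs that silence transposons in germ cells, was lower almost throughout. Of 24 genes tested 23 were called lower and 0 higher, with a median of -1.89. TDRD6, named above, stood at 325, 344 and 329.7 CPM in spermatogonia and 15.7, 19.6 and 16.2 CPM in round spermatids. TDRD12, a tudor helicase of secondary piRNA production, fell from 30.3 ± 1.7 to 2.49 ± 0.28 CPM (-3.61 ± 0.14 SE), and SPOCD1, which links piRNAs to DNA methylation, stood at 9.57, 8.82 and 8.77 CPM in spermatogonia and 0.525, 1.11 and 0.71 CPM in round spermatids (-3.53 ± 0.52 SE). In all 3 the stages lay far apart. PIWIL4, another PIWI protein, fell 4.16-fold, MAEL, which acts in the nuage, 2.24-fold, and DDX4, the germ cell RNA helicase, 1.94-fold (405, 398 and 393 CPM in spermatogonia and 205, 177 and 234 CPM in round spermatids). The one gene not called was TDRD3, at 47.5 and 45.8 CPM on average, a tudor protein that somatic cells also use; it is named after its values were seen.

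**Figure D4:**
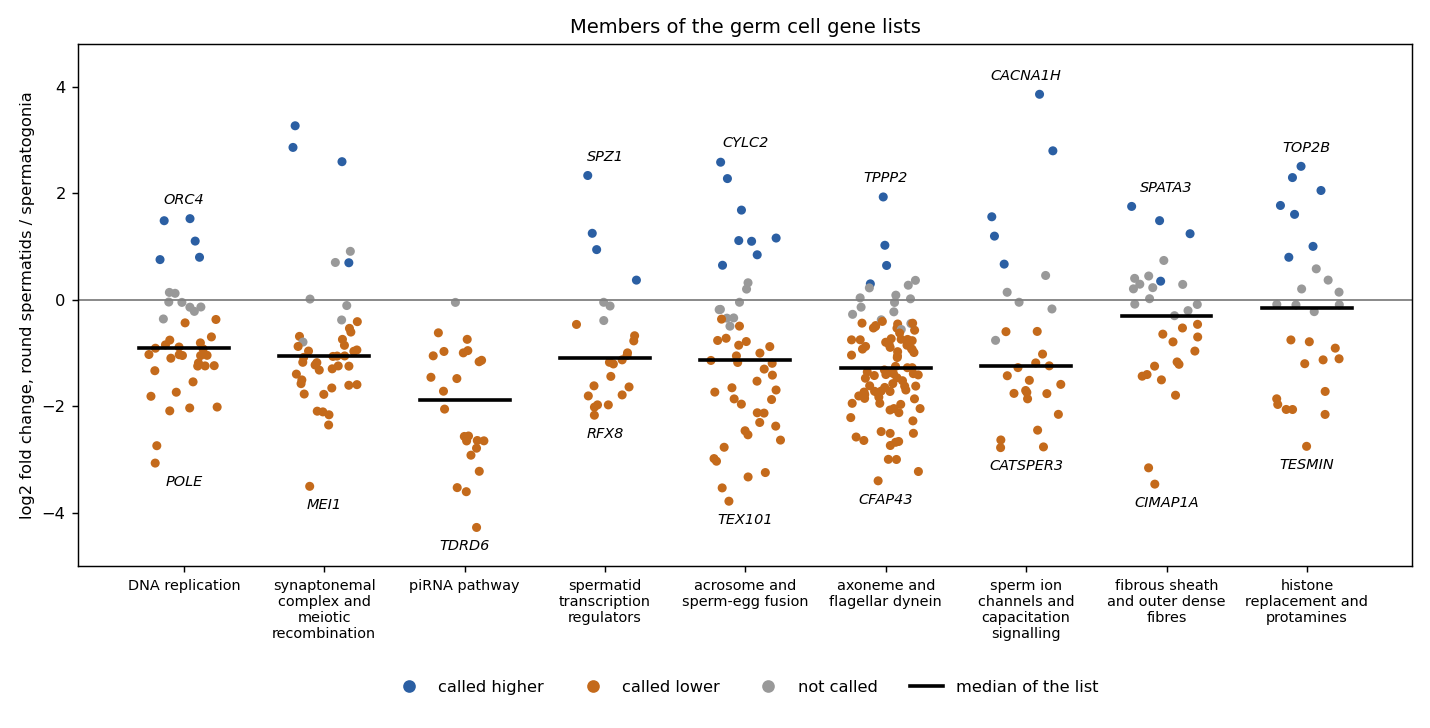
Log2 fold change of each tested member of 9 germ cell gene lists, one point a gene, with the list's median as a bar. The piRNA genes lie at or below 0, and the list of histone replacement holds both rises such as TOP2B and falls such as TESMIN.

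Transcription regulators of spermatids were lower in 17 of 24 cases and higher in 4 (median -1.09). RFX2, a master regulator of ciliary and spermatid genes, stood at 1081, 1074 and 1101 CPM in spermatogonia and 250.2, 334 and 244 CPM in round spermatids (-1.98 ± 0.14 SE). RFX3 (-2.02) and RFX8 (-2.17) of the same family and SOX5 (-1.98) fell with it. SPZ1, a helix-loop-helix zipper factor of the testis, stood at 10.8, 10.4 and 10.8 CPM in spermatogonia and 69, 28.7 and 62.9 CPM in round spermatids (2.33 ± 0.44 SE), and FHL5, the coactivator of CREM, at 10.8, 9.58 and 10.8 CPM in spermatogonia and 20.2, 21.9 and 17.7 CPM in round spermatids (0.94 ± 0.34 SE, adjusted p = 0.0252). The call of FHL5 was lost without any one library other than round spermatids 3 (adjusted p 0.0542 to 0.0758), on TPM (0.457) and with spermatogonia libraries summed (0.203). In SPZ1 round spermatids 2 was well below the other two.

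Protamines and transition proteins, which replace histones, were higher in round spermatids. PRM1 stood at 757, 742 and 739 CPM in spermatogonia and 3752, 2342 and 3165 CPM in round spermatids (2.05 ± 0.39 SE), TNP1, the first transition protein, at 313, 306 and 298 CPM in spermatogonia and 1027, 817 and 938 CPM in round spermatids (1.60 ± 0.33 SE), and TNP2, the second, at 318, 298 and 311 CPM in spermatogonia and 1247, 819 and 1092 CPM in round spermatids (1.77 ± 0.38 SE). Together with PRM2 these 4 genes rose 3.03-fold to 4.9-fold, with adjusted p from 0.000107 to 0.0016. Round spermatids 2 was the lowest of its stage in all 4 on CPM, a rank that depends on the scaling of the libraries. In their list of 28 genes it was the lowest for 16 on CPM and 2 on TPM, against 42.5 and 8.84% of all genes. H1-7, the linker histone of spermatids, rose 1.74-fold (adjusted p = 0.0289, and 0.066 to 0.0726 without any one library other than round spermatids 2). The call of H1-7 was also lost on TPM. TOP2B, a topoisomerase that works on spermatid DNA, rose 5.67-fold. The list as a whole did not follow them: 7 of 28 were called higher and 13 lower, with a median of -0.16. TESMIN, a testis metallothionein-like protein, stood at 481, 489 and 488 CPM in spermatogonia and 68.3, 79.1 and 68.5 CPM in round spermatids (-2.75 ± 0.11 SE). The acetyltransferase KAT5 (-2.16) and the ubiquitin ligase components RNF8 (-2.06) and DDB1 (-2.06) fell, and so did PHF7, the histone ubiquitin ligase of spermatids, from 2955 ± 38.5 to 1369 ± 147 CPM. The kinase CAMK4, which phosphorylates protamine, fell as well (-1.86).

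Testis-specific serine kinases phosphorylate proteins of the spermatid. Of 5 genes tested 0 were called higher and 2 lower. TSSK4 stood at 150.3, 149 and 145 CPM in spermatogonia and 59.8, 52.9 and 54.4 CPM in round spermatids (-1.41 ± 0.09 SE) and TSKS, a substrate and partner of these kinases, at 156, 151 and 150.0 CPM in spermatogonia and 94.9, 97.1 and 94 CPM in round spermatids (-0.67 ± 0.27 SE, adjusted p = 0.0427). Without any one of the 6 libraries the adjusted p of TSKS was 0.0752 to 0.0932. TSSK2 (-0.15), TSSK3 (0.05) and TSSK6 (0.37) were not called, with adjusted p of 0.679, 0.683 and 0.291. On TPM, where the median of all genes was -0.39, TSSK3 was at -0.55 (limma, adjusted p = 0.0174) and TSSK6 at -0.26.

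Acrosome and sperm-egg fusion genes, which arm the sperm head, were mostly lower: 35 of 51 against 8 higher, with a median of -1.14. ACR, the acrosomal protease acrosin, stood at 707, 693 and 710.4 CPM in spermatogonia and 488, 298 and 455 CPM in round spermatids (-0.77 ± 0.17 SE, adjusted p = 0.00205), and ACRBP, which holds its precursor, at 3267, 3138 and 3210.2 CPM in spermatogonia and 769, 949 and 749 CPM in round spermatids (-1.96 ± 0.13 SE). ACRV1 and SPACA1, proteins of the acrosomal matrix and membrane, fell from 119 ± 2.74 to 52.7 ± 16.3 CPM and from 81.8 ± 2.62 to 40.8 ± 1.76. Larger falls were those of the membrane protein SPACA4 (-3.54), the lysozyme-like LYZL4 (-3.33) and DCST1 (-3.25), which is needed at fertilisation. The actin-like proteins of the perinuclear theca differed among themselves: ACTL7B fell 6.22-fold and ACTL7A 2.67-fold, while ACTL9 stood at 135 ± 3.89 CPM in spermatogonia and 119 ± 9.91 in round spermatids and was not called (adjusted p = 0.578). Both cylicins, basic proteins of the same structure, were higher. CYLC1 stood at 15.2, 14.5 and 14.4 CPM in spermatogonia and 86.9, 48.7 and 77.5 CPM in round spermatids (2.27 ± 0.42 SE) and CYLC2 at 31.4, 29.6 and 33 CPM in spermatogonia and 251, 76.1 and 235 CPM in round spermatids (2.58 ± 0.51 SE). DKKL1, an acrosomal glycoprotein, was among the 10 most abundant genes of round spermatids but uneven, at 2382, 2306 and 2342 CPM in spermatogonia and 6978, 1628 and 6556 CPM in round spermatids. Round spermatids 2 lay below the spermatogonia and the other two far above, with a log2 fold change of 1.11 ± 0.43 SE (adjusted p = 0.0343). Its call was lost without any one library other than round spermatids 2 (adjusted p 0.0766 to 0.133) and on TPM (0.531), and that of ACRV1 with spermatogonia libraries summed (0.059).

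Axoneme and flagellar dynein genes, which build the motor of the tail, had 80 of 97 members lower and 4 higher (median -1.28). DNAH2, an inner arm dynein heavy chain, stood at 316, 344 and 317 CPM in spermatogonia and 29.6, 42.2 and 32.5 CPM in round spermatids (-3.23 ± 0.19 SE). DNAAF5, which assembles dynein arms in the cytoplasm, stood at 164, 164 and 169.6 CPM in spermatogonia and 15.8, 28 and 18.5 CPM in round spermatids (-3.00 ± 0.20 SE). CFAP43 (-3.40) and SPEF1 (-3.00), of the axoneme, fell too. TPPP2, a tubulin-binding protein of the sperm tail, was the clearest exception, at 94.5, 88.8 and 89.1 CPM in spermatogonia and 360.5, 313 and 363 CPM in round spermatids (1.93 ± 0.33 SE). CFAP97D1 was higher too (1.02, adjusted p = 0.0114), with round spermatids at 101, 45.2 and 90.8 CPM, a call lost on TPM (0.264) and with spermatogonia libraries summed (0.138). Even after these falls 84 of the 97 genes had a mean of at least 10 CPM in round spermatids, against 8917 of all 16802 genes.

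Fibrous sheath and outer dense fibre genes, the cytoskeleton around the axoneme, were more even: 4 of 31 were called higher, 15 lower and 12 not called (median -0.30). AKAP4, the main sheath protein, stood at 166, 168 and 165 CPM in spermatogonia and 279, 281 and 270.1 CPM in round spermatids (adjusted p = 0.0595), ODF1 at 309.5 ± 7.6 CPM in spermatogonia and 408 ± 36.8 in round spermatids (adjusted p = 0.29) and ODF2 at 1846 ± 30.2 CPM in spermatogonia and 1733 ± 297 in round spermatids (adjusted p = 0.545). None of these 3 structural proteins was called, although the libraries of the stages did not overlap for AKAP4 and ODF1. AKAP4 was called higher under 7 of the 19 alternatives, DESeq2 (adjusted p = 0.0155), RLE factors (0.0316) and the fit of only the compared stages (6.83e-05) among them. Over all 19 its adjusted p ran from 6.83e-05 to 0.809. Of the 19, ODF1 was called higher in 1, that fit of the compared stages, and ODF2 lower in 1, on TPM. SPATA3 (1.75) and OAZ3 (1.48), an antizyme of haploid cells, rose, and both calls were lost on TPM (adjusted p = 0.0502 and 0.0718). CIMAP1A, an outer dense fibre protein (-3.46), SUN5, which couples head and tail (-3.16), GSTM3 (-1.80) and FSIP1 (-1.51) fell. The CatSper channel, which lets calcium into the sperm tail, was lower in every CATSPER gene tested. CATSPER3 stood at 11, 10.4 and 10.6 CPM in spermatogonia and 1.39, 2.17 and 1.12 CPM in round spermatids (-2.78 ± 0.23 SE), while CATSPER4 (-2.64), CATSPER1 (-2.45), CATSPERB (-1.76) and CATSPERG (-1.28) fell with it. The sperm potassium channel KCNU1 fell 6.8-fold. Over the list of ion channel and capacitation genes 19 of 29 were called lower and 5 higher (median -1.24). The T-type calcium channel CACNA1H, which smooth muscle also expresses, went the other way at 17.3, 15.7 and 17 CPM in spermatogonia and 247, 219 and 256 CPM in round spermatids (3.86 ± 0.13 SE), as did CACNA1G (2.79). Transcripts of the smooth muscle list summed to 231 to 234 CPM in spermatogonia and 10112 to 12198 CPM in round spermatids, and the part of such cells in the CACNA1H rise was not tested.

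Translational control proteins store and release germ cell messages. Of 37 tested 11 were called higher and 19 lower (median -0.31). The most abundant members were not called: YBX2, the germ cell Y-box protein that masks messages, stood at 6709, 6460.3 and 6857 CPM in spermatogonia and 6648, 3544 and 5963 CPM in round spermatids (adjusted p = 0.228), and PABPC1, the poly(A)-binding protein, at 4151 ± 38 CPM in spermatogonia and 3714 ± 529 in round spermatids (adjusted p = 0.282). YBX2 was among the 10 most abundant genes of both stages. YBX3 stood at 2706 ± 117 CPM in spermatogonia and 2475 ± 467 in round spermatids (adjusted p = 0.442). RBM46 (3.99-fold lower), RBM44 (-1.97), MARF1 (-1.89) and ELAVL2 (-1.73), all RNA-binding proteins, fell. BICC1 (2.94) and LARP7 (2.74) rose.

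Of 31 glycolysis genes 13 were called higher and 13 lower (41.9% each, median -0.19), much like all genes, and what follows describes single enzymes and their germ cell paralogs. On TPM, which corrects for length and lets genes be compared, GAPDH stood at 127, 123 and 126 TPM in spermatogonia and 327, 623 and 305 TPM in round spermatids, whereas its sperm paralog GAPDHS stood at 303, 308 and 309 TPM in spermatogonia and 145, 277 and 128 TPM in round spermatids. GAPDHS was thus the more abundant of the 2 in spermatogonia and the less abundant in round spermatids. The log2 fold change was 2.28 ± 0.13 SE for GAPDH and -0.21 ± 0.30 SE for GAPDHS, which was not called (adjusted p = 0.54). LDHC, the sperm lactate dehydrogenase, stood at 891 ± 16.1 TPM in spermatogonia and 228 ± 107 in round spermatids. Its somatic paralog LDHA stood at 359.6 ± 3.16 and 148 ± 42.2 TPM. Their log2 fold changes on counts were -1.44 and -0.71. The falls look larger on TPM, where the median log2 fold change of all genes was -0.39. PGAM1 rose (2.70) and PGAM2 fell (-1.66), crossing over from 24 ± 0.6 and 228 ± 3.35 TPM in spermatogonia to 105 ± 29.5 and 51.7 ± 32.8 in round spermatids. Further rises were those of PKM, a pyruvate kinase of many tissues (3.22), HK2 (2.14) and the X-linked PGK1 (1.84). ALDOC, an aldolase, fell 5.71-fold, and ENO4, the enolase of the sperm tail, 2.18-fold. Paralogs as alike as these can share reads, which the counting may split in ways the sources do not state.

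Nuclear and mitochondrial genes of the respiratory chain went in opposite directions. Among 62 nuclear genes of oxidative phosphorylation 43 were called lower and 10 higher (median -0.94). NDUFB2 (-2.50), NDUFS4 (-2.23, or -2.89 without round spermatids 2) and NDUFS3 (-2.03), of complex I, and COX8A (-2.21), of complex IV, fell. COX6B2, the testis form of a complex IV subunit, fell 2.4-fold. CYCS, the somatic cytochrome c, stood at 15.8, 14.3 and 13.6 CPM in spermatogonia and 154, 107 and 164 CPM in round spermatids (3.28 ± 0.19 SE), and COX7B rose 4.68-fold. All 13 protein-coding genes of the mitochondrial genome were called higher, with a median of 3.97. ATP6, a subunit of the ATP synthase, stood at 801, 791 and 825 CPM in spermatogonia and 24139.9, 4426 and 25384 CPM in round spermatids (4.48 ± 0.57 SE), ND4, of complex I, at 279, 288 and 291 CPM in spermatogonia and 10109, 1653 and 10036 CPM in round spermatids (4.67 ± 0.59 SE), and COX1, of complex IV, at 2896, 3022 and 2883 CPM in spermatogonia and 7639, 5735 and 8260.5 CPM in round spermatids (1.30 ± 0.16 SE). Every round spermatid library was above every spermatogonia library in these 3 genes, and round spermatids 2 was the lowest of its stage by a wide margin in ATP6 and ND4. COX1 changed least of the 13 and ND2 (4.82) most. Without round spermatids 2 the median of the 13 was 4.40.

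Cytosolic ribosomal proteins were higher in 28 of 52 cases and lower in 9, with a median of 0.51 on counts, 53.8% and 17.3% of the list. On TPM 14 were higher (26.9%) and 15 lower (28.8%), against 26.8 and 50% of all genes, with a median of -0.10, which is 0.29 above that of all genes. RPL10, which is X-linked, and RPL10L, its testis retrogene on an autosome, crossed over. RPL10 stood at 107, 102 and 104 TPM in spermatogonia and 238, 622 and 238 TPM in round spermatids, and RPL10L at 606, 596 and 593 TPM in spermatogonia and 84.1, 114 and 78.1 TPM in round spermatids. RPL10L was thus the more abundant copy in spermatogonia and RPL10 in round spermatids, with log2 fold changes of -2.10 ± 0.11 SE and 2.30 ± 0.21 SE. The X-linked RPS4X (2.86) and RPL36A (3.13) rose, as did RPL37 (2.59) and RPL23 (2.52), while FAU, a ribosomal protein fused to a ubiquitin-like one, fell 8.57-fold. Ribosomal protein genes have many processed copies, so single values here are uncertain.

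Of 38 genes for cohesin, condensin and CTCF, which shape chromosome structure, 14 were called higher (36.8%) and 16 lower (42.1%), shares near those of all genes. Their median was 0.10, and -0.52 on TPM, where all genes had -0.39. The meiotic cohesin subunits were lower: STAG3 stood at 908, 955 and 932 CPM in spermatogonia and 274, 270.4 and 273 CPM in round spermatids (-1.77 ± 0.10 SE), REC8 fell 1.84-fold and SMC1B 1.45-fold (adjusted p = 0.025, and 0.0615 or 0.0518 without spermatogonia 2 or 3). Among the subunits that other cells use STAG2 stood at 4.97, 5.58 and 5.19 CPM in spermatogonia and 41, 39.8 and 47.2 CPM in round spermatids (3.02 ± 0.18 SE), STAG1 rose 1.65-fold (not called on TPM, adjusted p = 0.713), and RAD21 was called higher by a small amount (0.33 ± 0.09 SE; -0.28 and not called on TPM, where all genes had -0.39). SMC1A was not called, at 26.8 ± 0.858 CPM in spermatogonia and 33.4 ± 7.23 in round spermatids (adjusted p = 0.128), but was called higher without round spermatids 2 (adjusted p = 0.0108). The condensin subunits NCAPD2 (-2.43), NCAPD3 (-2.38) and NCAPH (-2.20) fell, and so did the sororin gene CDCA5 (-1.78). CTCF, the insulator protein that shapes chromatin loops, stood at 31.3, 32 and 31.6 CPM in spermatogonia and 64.3, 45.8 and 64.3 CPM in round spermatids (0.88 ± 0.14 SE, adjusted p = 0.000214), and its germ cell paralog CTCFL at 2.36, 2.48 and 2.74 CPM in spermatogonia and 7.21, 8.82 and 7.1 CPM in round spermatids (1.61 ± 0.26 SE, adjusted p = 0.000201). Both paralogs were higher in every round spermatid library on CPM. For CTCF round spermatids 2 was much the nearest to the spermatogonia on that scale, a rank that depends on the scaling of the libraries. The call of CTCF was lost on TPM (limma, adjusted p = 0.133). SMC6, of the SMC5/6 repair complex, was uneven, at 78.4, 81.1 and 78.2 CPM in spermatogonia and 233, 68.4 and 241 CPM in round spermatids (1.19 ± 0.37 SE), with round spermatids 2 below the spermatogonia. Without round spermatids 1 or 3 its adjusted p was 0.0518 or 0.0591, and its call was also lost on TPM.

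Genes of the nuclear lamina moved in both directions. LMNA, the A-type lamin of differentiated somatic cells, stood at 14.2, 14.6 and 14.9 CPM in spermatogonia and 665, 932 and 695 CPM in round spermatids, 52.5-fold higher (5.71 ± 0.20 SE). The B-type lamins differed, with LMNB1 at 24.2 ± 0.722 CPM in spermatogonia and 34.7 ± 6.67 in round spermatids (0.52 ± 0.15 SE, adjusted p = 0.0102; -0.11 and not called on TPM, where all genes had -0.39) and LMNB2 at 71.2 ± 1.7 CPM in spermatogonia and 26.2 ± 3.24 in round spermatids (-1.44 ± 0.17 SE). LBR, the lamin B receptor, fell 5.48-fold, and EMD, which encodes emerin, rose 5.64-fold. The LINC complex joins the nucleus to the cytoskeleton, and its SUN proteins fell: SUN1 (-1.61), SUN2 (-1.62) and SUN5, named above. DPY19L2, which anchors the acrosome to the nucleus, fell 3.64-fold and the germ cell nucleoporin gene NUP210L 4.49-fold, while SYNE3 rose (3.08). In all 7 of 27 genes were called higher and 15 lower (median -0.47). Beside the rise of LMNA, matrix transcripts summed to 27336 to 27916 CPM in round spermatids against 545 to 557, and the part of somatic cells in it was not tested.

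Smooth muscle genes were higher in 35 of 36 cases, with a median of 5.97, and a contractile set of genes was present at high level in each round spermatid library. MYH11, the smooth muscle myosin heavy chain, stood at 5.57, 5.55 and 5.65 CPM in spermatogonia and 2345, 1617 and 2496 CPM in round spermatids (8.59 ± 0.54 SE), DES, the muscle intermediate filament desmin, at 1.78, 1.83 and 2 CPM in spermatogonia and 310.3, 218 and 317 CPM in round spermatids (7.24 ± 0.31 SE), and TAGLN, the actin-binding transgelin, at 3.55, 3.47 and 3.28 CPM in spermatogonia and 987, 731 and 935 CPM in round spermatids (8.01 ± 0.23 SE). The spermatogonia libraries were low in all of these. MYLK, the kinase that starts contraction, rose by 8.98 and RGS5, a pericyte gene, by 9.75. The 1 gene that fell was ACTC1, the cardiac actin, from 13.1 ± 0.145 to 6.78 ± 1.41 CPM. Of 66 collagens, laminins and matrix proteoglycans 57 were called higher and 2 lower (median 4.78). COL1A1, the main chain of type I collagen, was among the 10 most abundant genes of round spermatids, at 7.81, 8.03 and 8.41 CPM in spermatogonia and 5465, 2876 and 4845 CPM in round spermatids (9.09 ± 0.56 SE). COL1A2, its partner chain, stood at 2.2 ± 0.12 CPM in spermatogonia and 319 ± 69.7 in round spermatids, and COL3A1 at 2.66 ± 0.271 CPM in spermatogonia and 788 ± 89.5 in round spermatids. COL12A1 (adjusted p = 0.0336) and COL28A1 (adjusted p = 0.00324) were the 2 that fell, with log2 fold changes of -0.56 and -1.34. The call of COL12A1 was lost without any one library other than round spermatids 2 (adjusted p 0.0558 to 0.116).

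Sertoli cell genes were higher in 25 of 32 cases and lower in 3 (median 1.71). SOX9, the factor that makes Sertoli cells, stood at 1.79, 1.7 and 1.55 CPM in spermatogonia and 102, 54.9 and 97.9 CPM in round spermatids (5.66 ± 0.34 SE). GDNF, the niche factor for stem cells, stood at 0.625, 0.609 and 0.618 CPM in spermatogonia and 74.1, 73.9 and 77.2 CPM in round spermatids (6.92 ± 0.17 SE), and KITLG, the ligand of KIT, at 0.511, 0.538 and 0.517 CPM in spermatogonia and 42.1, 51.4 and 53.9 CPM in round spermatids (6.55 ± 0.49 SE). Both ligands thus lay in the libraries labelled round spermatids, as did KIT and GFRA1 of their receptors, while RET did not. INHBA, an activin subunit that other stromal cells also make, rose by 7.64, and INHA, the inhibin alpha subunit, by 0.92, a call lost on TPM (adjusted p = 0.38). CLU, the secreted clusterin of Sertoli cells, stood at 186, 183 and 182 CPM in spermatogonia and 831, 834 and 748 CPM in round spermatids (2.13 ± 0.13 SE). AMH, which immature Sertoli cells secrete, stayed low, at 0.199, 0.0283 and 0.0719 CPM in spermatogonia and 0.829, 1.8 and 0.625 CPM in round spermatids. TJP1, of tight junctions, was one of the 3 that fell (-0.43 ± 0.12 SE, adjusted p = 0.00657, and 0.0642 with spermatogonia libraries summed). VIM, the vimentin of mesenchymal and Sertoli cells, stood at 58.3, 55 and 57.6 CPM in spermatogonia and 1449, 1648 and 1509 CPM in round spermatids (4.75 ± 0.14 SE).

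Leydig cell genes were called in both directions. Of 20 tested 11 were called lower and 7 higher (median -0.94). Besides CYP17A1 and INSL3, STAR, which brings cholesterol into mitochondria, stood at 6.22, 5.96 and 6.52 CPM in spermatogonia and 0.998, 0.612 and 1.01 CPM in round spermatids (-2.83 ± 0.25 SE), and LHCGR, the receptor of luteinising hormone, at 1.46, 1.59 and 1.64 CPM in spermatogonia and 0.102, 0.0496 and 0.27 CPM in round spermatids (-3.46 ± 0.59 SE, or -4.34 without round spermatids 3). CYP11A1, which makes pregnenolone, fell 2.14-fold and FDX1, its electron donor, 4.07-fold. HSD11B1 (2.91) and HSD17B3 (2.10), which also act on steroids, rose. INSL3, LHCGR, STAR, CYP11A1 and CYP17A1 were thus higher in the libraries labelled spermatogonia, and 7 other members of the list in those labelled round spermatids.

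Endothelial genes were higher in 16 of 18 cases and lower in 1 (median 3.40). CDH5, the cadherin of endothelial junctions, stood at 2.78, 3.01 and 3.84 CPM in spermatogonia and 93.8, 104 and 103 CPM in round spermatids (4.96 ± 0.56 SE). PECAM1 (2.82), ROBO4 (5.69), TEK (5.61), EGFL7 (4.91) and KDR (4.46) rose with it. NOS3, the endothelial nitric oxide synthase, fell from 119 ± 1.05 to 23 ± 3.81 CPM. Leukocyte genes were higher in 23 of 29 and lower in 0 (median 2.56), mostly at low levels. Of the 29, 4 had a mean of at least 10 CPM in round spermatids, against 8917 of all 16802 genes. CD74, the invariant chain of antigen presentation, stood at 31.1, 27.2 and 28.7 CPM in spermatogonia and 521, 450.4 and 479 CPM in round spermatids (4.06 ± 0.13 SE) and CD68, of macrophages, at 0.469, 0.382 and 0.474 CPM in spermatogonia and 17.8, 9.83 and 16.3 CPM in round spermatids (5.04 ± 0.31 SE). TYROBP (6.42), LAPTM5 (3.47) and PTPRC (2.24) were also higher. Erythrocyte genes were near the floor in both stages, with 4 of 8 tested higher and 2 lower. Over the 11 with a matching symbol, sums were 5.21 to 5.66 CPM in spermatogonia and 5.13 to 7.74 CPM in round spermatids. HBB, a globin, had 2 counts over the 3 spermatogonia libraries and stood at 0.474, 0.662 and 0.743 CPM in round spermatids.

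Immediate early genes, which cells switch on within minutes of a stimulus and which tissue dissociation is known to induce, were called higher in 28 of 29 cases (median 5.11). EGR1 stood at 28.2, 27.3 and 30.7 CPM in spermatogonia and 3848, 1960.0 and 4007 CPM in round spermatids (6.83 ± 0.59 SE), MYC at 1.24, 0.948 and 1.28 CPM in spermatogonia and 259, 197 and 241 CPM in round spermatids (7.65 ± 0.60 SE) and GADD45B, a stress response gene, at 6.86, 6.23 and 6.97 CPM in spermatogonia and 1378, 954 and 1392 CPM in round spermatids (7.54 ± 0.48 SE). FOSL1, of the AP-1 family, rose by 7.08. In EGR1 and FOSL1 round spermatids 2 had the lowest level of its stage. The exception was DNAJB1, a heat shock cochaperone that the testis expresses strongly, which fell from 1426 ± 29.3 to 497 ± 155 CPM. The summed level of the list was 1924 to 1978 CPM in spermatogonia and 13356 to 16973 CPM in round spermatids. How the cells were handled in each stage is not stated in the sources used here, and its part in these values was not tested.

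The X chromosome is silenced in meiosis and stays largely repressed in round spermatids, where a set of X-linked genes escapes. Of 415 X-linked genes tested 277 were called higher (66.7%) and 47 lower (11.3%), with a median of 1.38. Of 12252 autosomal genes 4784 were higher (39%) and 4960 lower (40.5%), with a median of -0.02. Among genes with a mean of at least 10 CPM over the 6 libraries, 118 of 168 X-linked and 2558 of 7224 autosomal genes were higher. A mean of at least 10 CPM in spermatogonia selects genes high in that stage, which lowers the fold changes of X-linked and autosomal genes alike. Among such genes 51 of 101 X-linked ones were higher and 24 lower, with a median of 0.49. For autosomal genes 1442 of 6349 were higher and 3701 lower, with a median of -0.60. On TPM, where all genes had a median of -0.39, the X-linked median was 0.30, with 205 higher and 78 lower. Single autosomes ran from 31.2% higher on chromosome 3 to 47.3% on chromosome 16. Of X-linked genes named above, PGK1, RPL10, RPS4X, RPL36A, STAG2, EMD, CYLC1 and BGN rose, and AKAP4 and SMC1A were not called. X-linked transcripts of somatic cells are in these counts too, and their part was not tested.

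**Figure D5:**
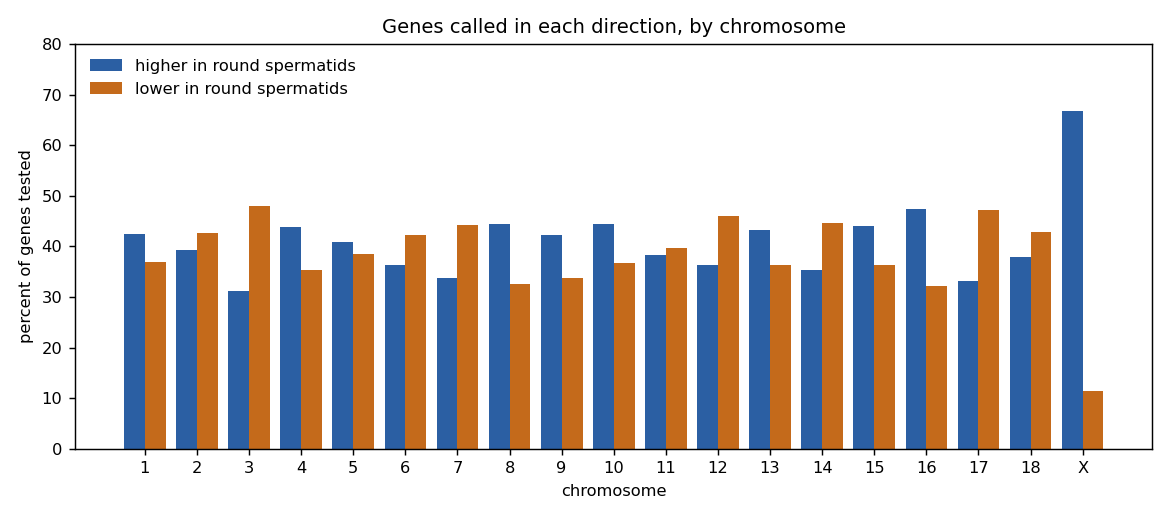
Percent of genes tested on each chromosome that were called higher (blue) or lower (orange) in round spermatids, over 18 autosomes and the X chromosome. The X chromosome has 277 of 415 genes higher and 47 lower, while the autosomes together have 4784 and 4960 of 12252.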

How the data were processed

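Libraries were made from total RNA with a directional kit and sequenced in paired reads, per the labels' protocols. The submitters' processing notes name Sscrofa11.1 and bcl2fastq. Aligner, counter and strand setting were not given in the sources used here, so antisense, overlapping and near-identical genes are uncertain. The authors deposited estimated counts and TPM for 22342 gene identifiers. Each deposited count equals the TPM of that gene and library times a gene factor and a library factor, to within a log deviation of 3.73e-14 over 16193 genes. Another 6 library columns were not used. Symbols were found for 14749 identifiers and chromosomes, by symbol in a RefSeq table of Sscrofa11.1, for 13685; 1 symbol was carried by more than 1 identifier. Markers PRM3, MKI67, VWF and DAZL matched no symbol and were not analysed here.

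Counts were rounded, filtered with filterByExpr, scaled with TMM factors (1.05 to 1.26 in these 6 libraries) and fitted over all 9 libraries by stage. The fit used glmQLFit and glmQLFTest of edgeR 4.0.16 under R 4.3.3 and had a common dispersion of 0.0316. Standard errors are |log2 fold change| / sqrt(F), and p-values are Benjamini-Hochberg adjusted over 16802 genes. Totals of 47963279 to 64639201 counts leave counting error small except for genes of few counts. Alternatives were RLE factors, no factors, scaling without the 50 most abundant genes, no filter, a filter of 1 CPM in 3 libraries, DESeq2 1.42.0, limma 3.58.1 (voom, and trend on log2(TPM + 1)), TREAT against 2-fold, only the compared stages, spermatogonia libraries summed, the replicate number as a block, each library left out and, added after the data were seen, no mitochondrial-genome genes. Python 3.11.15, pandas 2.3.3, numpy 2.4.6 and matplotlib 3.10.9 made tables and plots.

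The members and the 26 gene lists were chosen with earlier results of these data known, and lists are described by counts and medians only. List members without a matching symbol, or under the filter, dropped out: from 52 of 89 ribosomal protein genes and 8 of 18 erythrocyte genes tested to all 13 of the mitochondrial genome. Named genes are the 10 largest rises and falls of at least 50 CPM in the higher stage with stages that do not overlap, up to 4 and 2 called members a list at 5 CPM or more in the more and less frequent direction, fixed markers, and the 10 most abundant genes of each stage, 198 in all, with 49 partners chosen for contrast.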

Additional observations from a re-analysis of the deposited data

How the results depend on the processing

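Under each of the 19 alternatives, 0 genes called in both fits changed direction. Under TREAT against 2-fold, which tests for more than that size, 4306 genes were higher and 3446 lower. With spermatogonia libraries summed to 1 sample the counts were 5029 and 5585, and on log2(TPM + 1) 4499 and 8409. Leaving out 1 library gave 6204 to 6989 higher and 6264 to 6778 lower. Deviations from the stage mean in same-numbered libraries of the stages correlated at -0.0292, 0.00514 and 0.0283. The spermatogonia libraries differed by little more than counting error, so these values cannot show whether the replicate numbers pair the libraries. With the replicate block the counts were 6625 and 6753. Over the 247 genes named, 4522 comparisons with an alternative kept direction and call, 110 lost the call, 39 gained one and 13 turned sign. The signs that turned were on TPM, where the median of all genes moved to -0.39, though not every gene by the same amount, and where HK1 was -0.0932, LMNB1 was -0.110, ODF1 was -0.217, PDHA1 was -0.101, RAD21 was -0.279, SMC1A was -0.285, SYCP1 was -0.0227, TSSK3 was -0.551, TSSK6 was -0.258 and ZBTB16 -0.185, and with spermatogonia libraries summed, where TSSK3 was -0.0227. They also turned without round spermatids replicate 2 in ODF2 and YBX3: leaving out 1 library gave ODF2 -0.185 to 0.0432 and YBX3 -0.227 to 0.0200, the positive values being those without that library. The replicate block ended the call of DKKL1 (adjusted p = 0.0894) and gave one to AKAP4, HK1 and COX6A1. Summing leaves fewer samples; the cause of the other changes was not tested. Genes with few counts in 1 stage, such as OGN, KCNMB1 and HBB, have the least certain fold changes.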

Other observations

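By mean CPM, which favours long transcripts, the 10 most abundant genes of spermatogonia with a symbol were YBX2, ANKRD35, YBX1, PABPC1, ATXN2L, ACRBP, HSP90AA1, PHF7, PRRC2A and COX1. YBX1, a Y-box protein of many cells, stood at 5311, 5243 and 5251 CPM in spermatogonia and 3914, 3537 and 3978 CPM in round spermatids (-0.47 ± 0.12 SE). The call of YBX1 was lost with spermatogonia libraries summed. ATXN2L, a stress granule protein, fell 1.79-fold and PRRC2A, which binds methylated RNA, 3.13-fold. The ankyrin repeat gene ANKRD35 stood at 6631, 6714 and 6672 CPM in spermatogonia and 2128, 2281 and 2159.7 CPM in round spermatids, 3.05-fold lower, with no overlap of libraries. HSP90AA1, the inducible heat shock protein of the HSP90 family, stood at 3136 ± 57.9 CPM in spermatogonia and 2767 ± 513 in round spermatids and was not called (adjusted p = 0.273). In round spermatids 7 of the 10 most abundant genes were those of the mitochondrial genome, followed by YBX2, DKKL1 and COL1A1.

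The rank of round spermatids 2 within its stage depended on the scaling of the libraries: it was the highest of its stage for 43.6% of all genes on TMM-scaled CPM and for 85.5% on TPM, and the lowest for 42.5 and 8.84%. Genes of the mitochondrial genome had it lowest in 13 of 13 cases on CPM and in 11 on TPM. Of the 38 genes for cohesin, condensin and CTCF it was the lowest for 27 on CPM and 7 on TPM. Of the 62 nuclear genes of oxidative phosphorylation it was the highest for 44 on CPM and 62 on TPM, of 52 ribosomal protein genes for 35 and 48, and of 66 matrix genes for 40 and 62.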
